A study of Mus musculus with 6 samples.

Results

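Blood flow drags on the endothelium, and endothelial cells answer with a set of transcription factors and vasoactive signals. Expression of 10 genes of this kind was examined in brain microvessels of TEKCRIF1 mice, in which the *Crif1* gene is deleted by a Cre under the control of Tek. The genes, taken by symbol, were the transcription factors *Klf2* and *Klf4*, the nitric oxide synthases *Nos3*, *Nos1* and *Nos2*, the endothelin ligands *Edn1* and *Edn3*, the endothelin receptors *Ednra* and *Ednrb*, and the endothelin-converting enzyme *Ece1*. They are 10 of the 23183 genes with a value in each library, and all 10 were among the 14247 genes that were tested, those averaging 1 FPKM or more over the libraries. RNA from isolated cerebral microvessels was sequenced from 3 WT mice (TEK-cre, *Crif1* +/+) and 3 KO mice (TEK-cre, *Crif1* flox/flox), 1 library per mouse, of strain C57BL/6. Both groups carry the Cre, the RNA data do not show which cell types of the preparation keep *Crif1*, and the age of these mice was not used here. FPKM is the number of fragments scaled to transcript length and to the mapped fragments of the library, so that levels can be set side by side between genes. Where 3 values are given for a group, they are those of replicates 1, 2 and 3 in that order.

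In large vessels and capillaries, steady laminar flow induces *Klf2* and *Klf4* through a kinase cascade that ends on MEF2 factors, and both factors raise *Nos3* and *Thbd* and lower *Edn1* in cultured endothelium. Nitric oxide from endothelial NOS3 relaxes mural cells through soluble guanylate cyclase, and neuronal NOS1 and inducible NOS2 are further sources in the brain. Endothelin-1, released after cleavage by ECE1, constricts vessels through the type A receptor on smooth muscle and pericytes, while the type B receptor is found on endothelial cells and astrocytes.

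Of all genes tested with limma, 838 had a p under 0.05 before adjustment and 0 after it, where the smallest was 0.841, and the 10 genes are therefore described by their levels, by the spread between mice and by unadjusted tests. In short, *Klf2*, *Klf4* and *Ece1* had lower levels in every KO mouse than in any WT mouse, *Ednrb* had higher levels in every KO mouse, and the levels of the other 6 genes overlapped between the groups. *Klf2* and *Klf4* were the only members with a limma p under 0.05 before adjustment.

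The deleted gene and the cell types in the preparation were checked first. *Crif1*, listed as *Gadd45gip1*, was at 18.8, 15.3 and 16.5 FPKM in the WT mice and 10.8, 7.54 and 10.4 in the KO mice. Markers of endothelial cells were present in every library, with a summed level of 1060 to 1490 FPKM in the WT mice and 939 to 1280 in the KO mice over 10 genes. The 3 choroid plexus markers, *Ttr*, *Kl* and *Folr1*, summed to 2780 to 3270 FPKM in WT mice and to 2900 FPKM in KO 2, but to 8670 FPKM in KO 1 and 10300 FPKM in KO 3. The summed levels of some lists separated the groups, and 1 or 2 genes of each did so alone. In KO mice 7 of 8 astrocyte, 5 of 6 microglia and 4 of 4 fibroblast markers were lower, also after correction for GC content. Over all genes tested, 50.8% were lower. The sums without the separating genes, given below, overlap partly by that choice of genes. The astrocyte list of 8 genes summed to 628 to 749 FPKM in the WT mice and 495 to 533 in the KO mice, but of its genes only *Gfap* and *Gja1* separated the groups, and the other 6 genes summed to 184 to 292 and 183 to 229 FPKM. The fibroblast list of 4 genes summed to 769 to 1090 and 463 to 693 FPKM, with only *Col1a1* separating the groups, and its other 3 genes to 192 to 281 and 177 to 213 FPKM. The microglia list of 6 genes also had lower sums in every KO mouse, with 79.5 to 91.5 FPKM against 96.8 to 112 FPKM, and only *Cx3cr1* separated the groups. Its other 5 genes summed to 79.6 to 96.9 FPKM in the WT mice and 67.6 to 81.4 in the KO mice, with only KO 1 above WT 3. The part of these differences in the results on single genes was not tested. In the 11 lists of cell type markers, 0 genes were listed at 0 in every library. In bulk RNA of this kind, fewer cells of a type and less RNA per cell cannot be told apart. The depth was estimated from the FPKM values at 6300000 to 12000000 fragments per library. Transcript GC content and log2 fold change were related, at a Spearman correlation of −0.35 over 13726 genes, and genes are no independent replicates. Values after correction of each library for GC content, or without KO 1 and KO 3, are given beside many of the results that they moved.

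**Figure D1:**
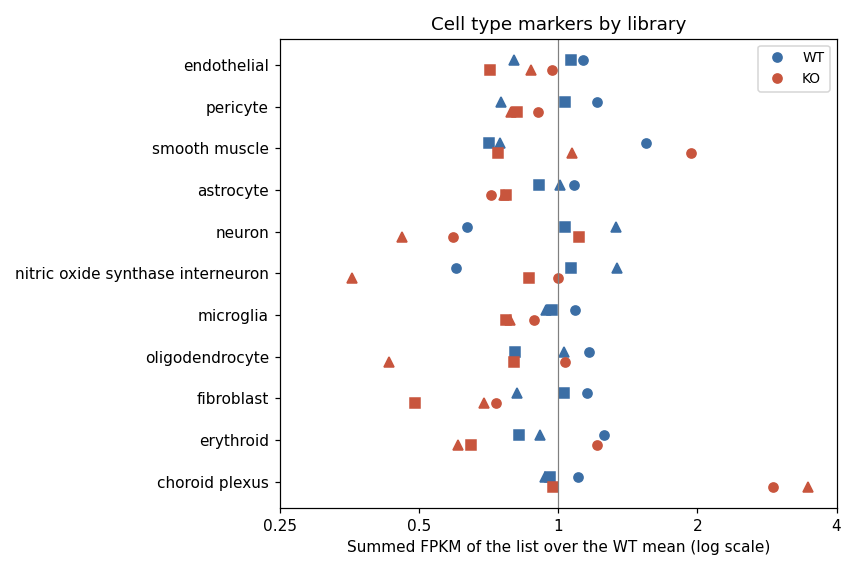
Summed FPKM of each cell type marker list in each library, divided by the mean of the 3 WT libraries, on a log axis. Circles, squares and triangles are replicates 1, 2 and 3. KO 1 and KO 3 lie apart from the other libraries for the choroid plexus list, and all KO libraries lie under all WT libraries for the astrocyte, microglia and fibroblast lists.

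*Klf2* encodes the zinc finger factor most closely tied to laminar flow in endothelium, and has 3 exons at chr8:72319033-72321656 on the plus strand (GRCm38). Its level was 58.2, 48.5 and 40.5 FPKM in the WT mice and 30.8, 31.0 and 29.8 in the KO mice. The KO mice were close to each other and all lay under the lowest WT mouse, while the WT mice differed more among themselves. Means were 49.0 ± 8.85 FPKM for WT and 30.5 ± 0.672 FPKM for KO (SD, n = 3 each), so that KO mice had 62.2% of the WT mean. The log2 fold change on log2(FPKM + 1) was −0.65 (standard error 0.20, 95% interval −1.09 to −0.21; limma p = 0.00822, adjusted p = 0.841; exact permutation p = 0.1, two-sided). With 3 mice against 3, 0.1 is the smallest p that the exact test can give.

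*Klf4*, which shares many flow-responsive targets with *Klf2*, has 5 exons at chr4:55527143-55532466 on the minus strand. It had 24.2, 27.5 and 22.3 FPKM in the WT mice and 13.8, 13.9 and 19.5 in the KO mice. All KO mice again lay under all WT mice, with KO 3 nearest to them. Means were 24.7 ± 2.65 FPKM for WT and 15.7 ± 3.25 FPKM for KO (SD, n = 3 each), or 63.7% of the WT mean. The log2 fold change was −0.63 (standard error 0.21, 95% interval −1.10 to −0.16; limma p = 0.0138, adjusted p = 0.841; exact permutation p = 0.1). The ratio of *Klf2* to *Klf4* ranged from 1.76 to 2.41 in WT mice and from 1.53 to 2.23 in KO mice, so the groups overlapped in that ratio.

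Among all genes tested, 3.11% had a limma p under 0.05 with a lower level in KO mice and 2.77% with a higher level, against 2 of 10 and 0 of 10 members. KO values lay entirely under WT values for 5.70% of the genes tested and entirely above them for 5.37%, against 3 and 1 of the 10 members. After adjustment, the share of genes called was 0 percent, and 0 of the 10 members were called. Of the 14247 genes, *Klf2* had the 482nd lowest log2 fold change and *Klf4* the 533rd lowest. Over the 10 members the median log2 fold change was −0.15, and 7 were lower and 3 higher in KO mice, beside a median of −0.01 and 50.8% lower over all genes tested. This balance depended on the scaling. After each library was scaled by its endothelial markers, *Nos3*, *Nos2* and *Edn3* turned to 0.09, 0.01 and 0.14, and the median of all genes to 0.21.

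The limma calls on *Klf2* and *Klf4* depended on the correction used. After each library was corrected for GC content, the log2 fold change of *Klf2*, whose longest transcript has 61.6% GC, was −0.44 (limma p = 0.0612) and that of *Klf4*, with 54.6% GC, was −0.54 (limma p = 0.0233), each beside an exact permutation p of 0.1. The groups still did not overlap for either gene after that correction. After each library was scaled by its endothelial markers, which moved the median log2 fold change of all genes to 0.21, the values were −0.41 for *Klf2* (limma p = 0.0740) and −0.39 for *Klf4* (limma p = 0.128), with exact permutation p-values of 0.1 and 0.2. The corrected level of *Klf2* was 46.2, 43.1 and 44.2 FPKM in the WT mice and 31.3, 37.4 and 31.5 in the KO mice on that scale, without overlap, and the WT mice were closer together than before. *Klf4* overlapped on that scale. The markers behind it include *Pecam1*, *Cdh5*, *Kdr* and *Tek*, which are also in the pathway lists below. Without KO 1 and KO 3, the log2 fold change was −0.63 for *Klf2* (limma p = 0.0472) and −0.78 for *Klf4* (limma p = 0.0137), with KO 2 as the only KO mouse, its spread assumed to be that of the WT mice, and no exact test able to reach 0.05. Leaving out 1 library at a time, *Klf2* stayed between −0.78 and −0.52 (limma p at most 0.0454), while *Klf4* was at p = 0.0606 without WT 2 and at p = 0.0507 without KO 1, each from limma, since exact tests of so few mice cannot reach 0.05.

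**Figure D2:**
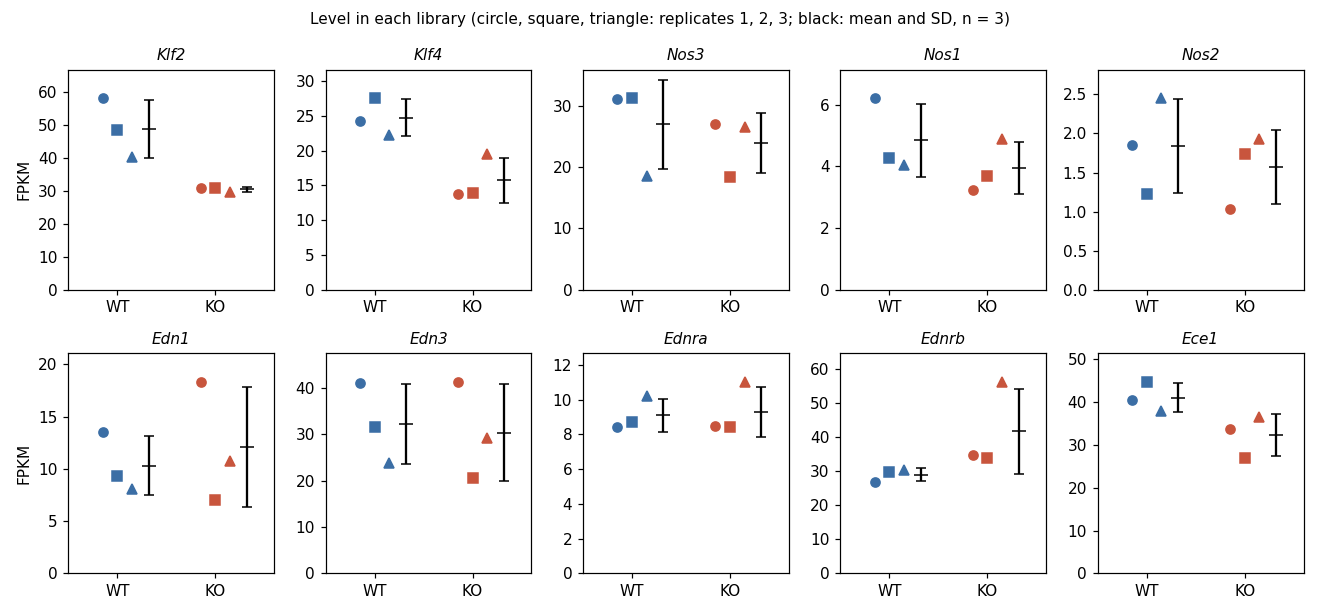
FPKM of the 10 genes in each library, WT in blue and KO in red, with the mean and SD of 3 mice in black at the right of each group; each axis starts at 0. The KO mice lie under all WT mice for Klf2, Klf4 and Ece1, above them for Ednrb, and the groups overlap for the other 6 genes.

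The sequence upstream of the 3 members with lower levels in every KO mouse is shown because the cascade that leads from flow to *Klf2* and *Klf4* acts on their promoters. Each line gives 200 bases of the RefSeq promoter window (GRCm38.p6), from 250 to 51 bases before the start that RefSeq annotates, 5′ to 3′ on the strand of the gene. Capitals mark the letters searched for MEF2, CTA and TAG with any 4 bases between them, or the CACCC letters to which KLF factors are known to bind, searched on both strands. With any 4 bases allowed, the MEF2 search is looser than the motif itself. The windows lie at chr8:72318812-72319011 (plus strand) for *Klf2*, at chr4:55532526-55532725 (minus strand) for *Klf4* and at chr4:137861987-137862186 (plus strand) for the first of 4 *Ece1* windows.
Klf2: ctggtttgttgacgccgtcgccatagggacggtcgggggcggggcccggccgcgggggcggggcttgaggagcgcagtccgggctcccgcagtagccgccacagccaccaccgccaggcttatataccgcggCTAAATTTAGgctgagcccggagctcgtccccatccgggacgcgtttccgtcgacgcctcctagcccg
Klf4: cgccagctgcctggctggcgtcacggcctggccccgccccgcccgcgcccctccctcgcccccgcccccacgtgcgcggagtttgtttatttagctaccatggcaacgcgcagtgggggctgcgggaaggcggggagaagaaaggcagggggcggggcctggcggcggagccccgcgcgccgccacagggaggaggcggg
Ece1: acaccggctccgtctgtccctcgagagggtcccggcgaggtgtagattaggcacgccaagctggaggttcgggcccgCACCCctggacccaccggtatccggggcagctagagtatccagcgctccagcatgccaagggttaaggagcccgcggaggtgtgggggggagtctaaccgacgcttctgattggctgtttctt
These starts, at 72319062 for *Klf2*, 55532475 for *Klf4* and 137862237 for *Ece1*, differ for *Klf2* and *Klf4* from the ends of the GENCODE genes given above. The MEF2 letters lie 118 to 109 bases before the RefSeq start of *Klf2* and in none of the other 10 windows of these genes. They were found in 3.69% of all 32851 windows of 300 bases, which reach to 50 bases after the start. The CACCC letters were in 7 of the 11 windows of these genes and in 57.5% of all windows, and the letters of an AP-1 motif, TGA and TCA with 1 base between them, in 0 of the 11 and in 7.81% of all windows. Windows were matched for 8 of the 10 genes, all but *Nos3* and *Nos2*. A match of letters is a description and does not show binding.

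*Nos3*, the endothelial nitric oxide synthase and a target of both factors, has 26 exons at chr5:24364810-24384474. It had 31.1, 31.2 and 18.6 FPKM in the WT mice and 27.0, 18.3 and 26.5 in the KO mice. The lowest mouse of each group was at about the same level and the remaining mice lay together higher up, so the groups overlapped. Means were 27.0 ± 7.27 FPKM for WT and 23.9 ± 4.85 FPKM for KO (SD, n = 3 each), and the log2 fold change of −0.15 had a 95% interval from −0.72 to 0.42 (limma p = 0.575; exact permutation p = 0.5). A difference of the size seen for *Klf2* lies within that interval. The value was 0.01 after correction for GC content and −0.50 without KO 1 and KO 3. Relative to the summed endothelial markers, *Nos3* was at 21.0, 22.1 and 17.5 per 1000 FPKM in WT mice and 21.1, 19.5 and 23.0 per 1000 FPKM in KO mice, and its spread was smaller on that scale. *Klf2* on the same scale was at 39.2, 34.2 and 38.1 per 1000 FPKM in WT mice and 24.1, 33.0 and 25.9 per 1000 FPKM in KO mice, with no overlap.

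The neuronal and inducible synthases were the lowest of the 10 genes. *Nos1*, found in neurons and in a class of interneurons that reach vessels, has 29 exons at chr5:117781032-117958840 and had 6.20, 4.28 and 4.04 FPKM in the WT mice and 3.24, 3.69 and 4.89 in the KO mice. The groups overlapped, with a log2 fold change of −0.24 (95% interval −0.84 to 0.37; limma p = 0.401; exact permutation p = 0.4). The 7 neuron markers summed to 207, 337 and 435 FPKM in the WT mice and 193, 362 and 150 in the KO mice, and *Nos1* did not follow their order: it was highest in WT 1, where that sum was lowest of the WT mice, and among KO mice in KO 3, where it was lowest of all. *Nos2*, the inducible form of immune and stressed cells, has 27 exons at chr11:78920787-78960254 and had 1.85, 1.23 and 2.45 FPKM in the WT mice and 1.03, 1.74 and 1.93 in the KO mice. These levels rest on an estimated 34 to 120 fragments per library, with a counting error of 17% at the lowest, and the groups overlapped (log2 fold change −0.14, 95% interval −0.92 to 0.63; limma p = 0.691; exact permutation p = 0.5).

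The 2 endothelin ligands had their highest values in the same mice, 1 of each genotype. *Edn1*, the main endothelial ligand and a gene that flow represses, has 5 exons at chr13:42301476-42307990. It had 13.5, 9.31 and 8.11 FPKM in the WT mice and 18.3, 7.06 and 10.8 in the KO mice. KO mice held both the highest and the lowest value. The log2 fold change was 0.15 (standard error 0.33, 95% interval −0.58 to 0.87; limma p = 0.662; exact permutation p = 0.7), and it was −0.18 without KO 1 and −0.46 without both KO 1 and KO 3. The smooth muscle markers summed highest in KO 1 (1070 FPKM) and WT 1 (854 FPKM), the mice with the highest *Edn1*, and lay between 391 and 592 FPKM in the other 4, and the part of this in the *Edn1* values was not tested.

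*Edn3*, a ligand that binds mainly the type B receptor, has 5 exons at chr2:174760619-174784042. It had 41.1, 31.7 and 23.9 FPKM in the WT mice and 41.3, 20.6 and 29.3 in the KO mice. Its highest values were again in WT 1 and KO 1 and its lowest in KO 2, at a log2 fold change of −0.10 (standard error 0.29, 95% interval −0.74 to 0.53; limma p = 0.729; exact permutation p = 0.8) and of −0.59 without KO 1 and KO 3. Among the 45 pairs of these 10 genes, *Edn1* and *Edn3* had the most similar profiles over the 6 libraries, with a root mean square difference of 0.16 on log2(FPKM + 1) after centring. *Edn3* was 2.25 to 3.40 times as high as *Edn1* in FPKM. That ratio was 3.05, 3.40 and 2.94 in WT mice and 2.25, 2.91 and 2.71 in KO mice, and although each ligand overlapped between the groups, their ratio did not, by a margin of WT 3 over KO 2 that is small beside the spread within the groups. No test is given for ratios, which were formed with the values in view.

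*Ednra* encodes the type A receptor of smooth muscle and pericytes, with 8 exons at chr8:77663031-77724464 on the minus strand. It had 8.41, 8.72 and 10.2 FPKM in the WT mice and 8.47, 8.43 and 11.0 in the KO mice. The 2 groups covered nearly the same range, with means of 9.10 ± 0.945 FPKM and 9.28 ± 1.44 FPKM (SD, n = 3 each). The log2 fold change was 0.02 with a 95% interval from −0.46 to 0.50 (limma p = 0.925; exact permutation p = 0.8). It was −0.02 after correction for GC content and −0.09 without KO 1 and KO 3. The 8 pericyte markers summed to 820 to 1320 FPKM in the WT mice and 860 to 984 in the KO mice, and *Ednra* was highest in WT 3 and KO 3, the mice with the lowest pericyte sum of their group. *Vtn* alone made up 586 to 995 FPKM of that sum in the WT mice. Of the 8 markers, 7 were lower in KO mice, or 6 after correction for GC content. *Pdgfrb*, *Anpep* and *Cspg4* had all KO values under all WT values, as did 5.70% of all genes tested.

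*Ednrb* encodes the type B receptor, with 8 exons at chr14:103814625-103844402 on the minus strand, and was the only member with higher levels in every KO mouse. It had 26.8, 29.9 and 30.4 FPKM in the WT mice and 34.7, 34.0 and 56.2 in the KO mice. KO 1 and KO 2 lay just above the WT mice, and KO 3 stood far above both. Means were 29.0 ± 1.92 FPKM for WT and 41.7 ± 12.6 FPKM for KO (SD, n = 3 each), or 144% of the WT mean. The log2 fold change was 0.47 (standard error 0.23, 95% interval −0.04 to 0.98; limma p = 0.0690, adjusted p = 0.841; exact permutation p = 0.1), and it was 0.24 without KO 3 (limma p = 0.264). It was 0.59 without KO 2 (limma p = 0.0287) and 0.71 after scaling by endothelial markers (limma p = 0.0190; exact permutation p = 0.1). Without both KO 1 and KO 3, in which the choroid plexus markers were high, it was 0.22 (limma p = 0.290, where no exact test can reach 0.05). After correction for GC content the log2 fold change was 0.36 (limma p = 0.178; exact permutation p = 0.2) and the groups overlapped, with 32.1 FPKM in WT 2 against 31.2 FPKM in KO 2.

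The summed astrocyte markers, which mark one of the cell types known to carry this receptor, were lower in every KO mouse while *Ednrb* was higher. Of the single markers only *Gfap* and *Gja1* separated the groups. Relative to the sum of the whole astrocyte list, *Ednrb* was at 35.8, 47.6 and 43.7 per 1000 FPKM in WT mice and at 70.2, 63.8 and 107 per 1000 FPKM in KO mice. *Gfap* and *Gja1* were then left out because they separated the groups. Relative to the other 6 astrocyte markers the groups overlapped, with 162 per 1000 FPKM in WT 2 above 148 per 1000 FPKM in KO 2. Relative to the summed endothelial markers *Ednrb* was at 18.1, 21.1 and 28.6 per 1000 FPKM in WT mice and 27.1, 36.2 and 48.9 per 1000 FPKM in KO mice, with WT 3 above KO 1. The scaling by endothelial markers used above gives each marker the same weight, unlike the sum. On that scale the groups did not overlap, with 21.3, 26.6 and 33.1 FPKM in WT mice and 35.3, 41.0 and 59.5 FPKM in KO mice. The ratio of *Ednrb* to *Ednra* was 3.19, 3.43 and 2.98 in WT mice and 4.10, 4.03 and 5.14 in KO mice, with no overlap. The ratio was highest in KO 3, 1 of the 2 libraries with high choroid plexus markers, and the part of these markers in the *Ednrb* values was not tested.

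*Ece1* encodes the protease that makes active endothelin from its precursor, with 20 exons at chr4:137862237-137965229. It had 40.5, 44.6 and 37.9 FPKM in the WT mice and 33.6, 26.9 and 36.4 in the KO mice. All KO mice lay under all WT mice, with KO 3 close to WT 3. Means were 41.0 ± 3.38 FPKM for WT and 32.3 ± 4.86 FPKM for KO (SD, n = 3 each), or 78.8% of the WT mean. The log2 fold change was −0.34 (standard error 0.20, 95% interval −0.78 to 0.10; limma p = 0.113, adjusted p = 0.841; exact permutation p = 0.1). It was −0.24 after correction for GC content, −0.22 without KO 2 and −0.10 after scaling by endothelial markers. Without KO 1 and KO 3 it was −0.59 (limma p = 0.0252, where no exact test can reach 0.05). Relative to the endothelial markers, *Ece1* overlapped, with 27.3 to 35.6 per 1000 FPKM in WT mice and 26.3 to 31.6 per 1000 FPKM in KO mice. Among the 10 genes, the profile of *Ece1* was closest to that of *Klf4*, with a root mean square difference of 0.19.

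**Figure D3:**
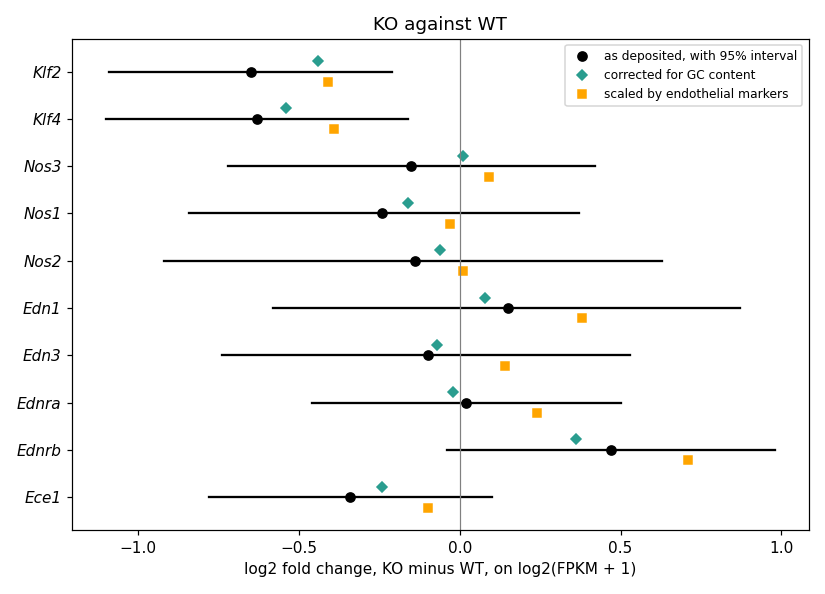
Log2 fold change of the 10 genes, KO minus WT, on log2(FPKM + 1). Black points with lines are the values as deposited with their 95% intervals, green diamonds the values after correction of each library for GC content, and orange squares the values after scaling by the endothelial markers. The interval excludes 0 for Klf2 and Klf4, and both other estimates lie nearer to 0 for these genes.

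By mean level over the 6 libraries, the order was *Klf2* (39.8 FPKM), *Ece1* (36.7), *Ednrb* (35.3), *Edn3* (31.3), *Nos3* (25.5), *Klf4* (20.2), *Edn1* (11.2), *Ednra* (9.19), *Nos1* (4.39) and *Nos2* (1.70). Neighbours in this order had ranges that did not overlap only at its end, where the range of *Ednra* lay above that of *Nos1* and the range of *Nos1* above that of *Nos2*. *Edn3* was above *Nos3* in each of the 6 libraries although their ranges overlapped. *Klf2* was above *Ece1* in each of the 3 WT mice and in 1 of the 3 KO mice. *Ece1* was above *Ednrb* in each of the 3 WT mice and in 0 of the 3 KO mice.

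The other genes of these pathways were examined in 6 lists. Of the 87 genes tested, 4 had a limma p under 0.05 with a lower level in KO mice and 1 with a higher level, together 5.75%, and 0 passed after adjustment. Over all genes tested these shares were 3.11% and 2.77%, so the lists stood near the background. Their median log2 fold change was −0.09, and 50 were lower and 37 higher. The median was −0.02 after correction for GC content and −0.19 without KO 1 and KO 3. KO values lay entirely under WT values for 5 of the 87 and entirely above for 1, beside 5.70% and 5.37% of all genes tested.

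Of the 20 genes in the list of flow sensing upstream of *Klf2* and *Klf4*, 14 were lower and 6 higher in KO mice. Their median log2 fold change was −0.13, and 1 was called. The list also holds genes that restrain the cascade, such as those of the CCM proteins, so its count has no single direction. After correction for GC content the count turned to 8 lower and 12 higher, with a median of 0.02. The called gene was *Cdh5*, which encodes VE-cadherin of the junctional complex that senses flow and which is also in the list of endothelial markers. *Cdh5* had 86.7, 92.4 and 91.3 FPKM in the WT mice and 50.8, 42.5 and 38.1 in the KO mice. No KO mouse came near the WT mice, whose values were within a narrow range, at a log2 fold change of −1.03 with a standard error of 0.19 (exact permutation p = 0.1; limma p = 0.000303, adjusted p = 0.841). Its GC-corrected log2 fold change was −0.98. *Heg1*, a partner of the CCM proteins that restrain this cascade, also had all KO values under all WT values, with 24.8 to 28.4 FPKM in the WT mice and 14.4 to 24.2 in the KO mice, and is named after its values were seen.

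Of the 17 tested genes that answer to flow or to KLF factors, 11 were lower and 6 higher, with a median of −0.26, the lowest of the 6 lists. *Thbd*, encoding the anticoagulant receptor thrombomodulin and a known target of *Klf2*, had 102, 85.6 and 52.3 FPKM in the WT mice and 39.4, 58.5 and 50.0 in the KO mice. The groups overlapped at WT 3 and KO 2, and the log2 fold change was −0.65 (limma p = 0.0374, adjusted p = 0.841; exact permutation p = 0.2). In this list and the one before, *Aqp1* and *Trpv4* were high in KO 1 and KO 3 with the choroid plexus markers, at 126 and 196 FPKM for the water channel *Aqp1* against at most 62.8 FPKM elsewhere, and at 29.7 and 45.4 FPKM for the calcium channel *Trpv4* against at most 17.5 FPKM. Both were named after their values were seen.

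Among the 21 tested partners and cofactor genes of the synthases, 10 were lower and 11 higher, with a median of 0.00, or 8 and 13 after correction for GC content, with a median of 0.07. *Pts*, an enzyme in the synthesis of the NOS cofactor tetrahydrobiopterin, had 22.6, 14.1 and 19.4 FPKM in the WT mice and 31.2, 21.8 and 31.9 in the KO mice, with KO 2 just under WT 1. Its log2 fold change was 0.58 (limma p = 0.0373, adjusted p = 0.841; exact permutation p = 0.2), and 0.41 after correction for GC content (limma p = 0.140). Of the 10 tested genes of the nitric oxide receptor and cyclic GMP, 4 were lower and 6 higher, with a median of 0.06, and 0 were called. After correction for GC content, 5 were lower and 5 higher, with a median of −0.06. *Gucy1a3*, a subunit of soluble guanylate cyclase, averaged 15.5 ± 1.02 FPKM for WT and 18.9 ± 2.60 FPKM for KO (SD, n = 3 each). *Pde1a*, a phosphodiesterase, had 14.8 to 28.8 FPKM in the WT mice and 14.6 to 16.5 in the KO mice. *Pde9a*, a phosphodiesterase of cyclic GMP, had 7.35, 6.80 and 6.97 FPKM in the WT mice and 10.8, 9.20 and 8.64 in the KO mice without overlap, and its log2 fold change was 0.38 (exact permutation p = 0.1; limma p = 0.0966).

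The endothelin processing list had 3 tested genes and 0 called. *Furin*, which cleaves the precursor before *Ece1* does, averaged 35.0 ± 1.01 FPKM for WT and 30.1 ± 7.28 FPKM for KO (SD, n = 3 each), and *Ece2* had 7.14 ± 2.01 FPKM and 8.54 ± 4.09 FPKM. *Mme*, a peptidase that breaks endothelin down, had 0.465 to 1.58 FPKM in the WT mice and 1.26 to 2.33 in the KO mice. Of the 18 tested genes of endothelin receptor signalling, 12 were lower and 6 higher. *Gna12*, a G protein alpha subunit, had 26.7, 30.3 and 30.9 FPKM in the WT mice and 18.9, 16.7 and 25.6 in the KO mice without overlap, and a log2 fold change of −0.52 (limma p = 0.0355, adjusted p = 0.841; exact permutation p = 0.1). *Plcb3*, a phospholipase C, had 15.8, 17.1 and 12.1 FPKM in the WT mice and 9.02, 7.90 and 12.3 in the KO mice, with KO 3 above WT 3 and a log2 fold change of −0.58 (limma p = 0.0348, adjusted p = 0.841; exact permutation p = 0.2). After correction for GC content the limma p was 0.116 for *Gna12* and 0.0787 for *Plcb3*.

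**Figure D4:**
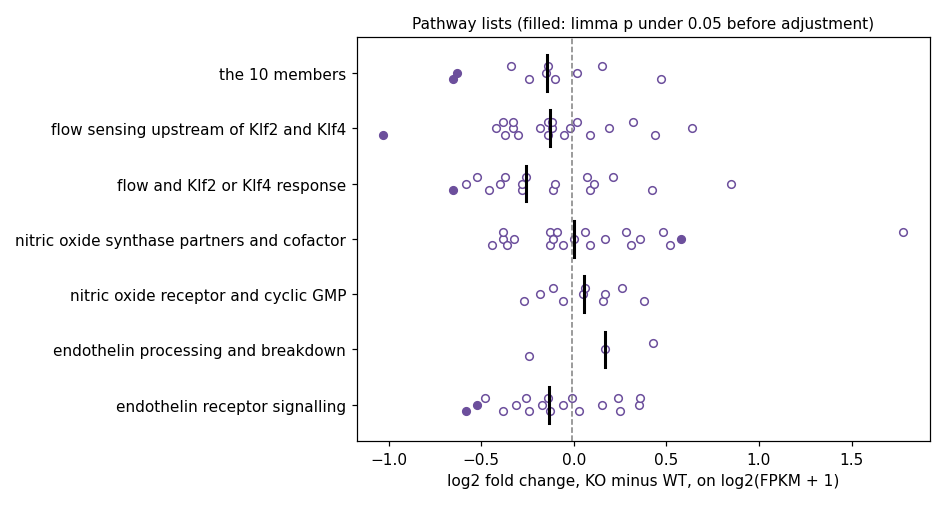
Log2 fold change, KO minus WT, on log2(FPKM + 1) of each tested gene of the 10 members and of the 6 pathway lists, with the median of each list as a black bar and the median of all genes tested as a dashed line at −0.01. Filled points had a limma p under 0.05 before adjustment: 2 members and 5 genes of the lists. The point at 1.78 is Ass1, which had 0.000211 to 25.8 FPKM in KO mice and was not called.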

How the data were processed

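Microvessels were isolated by the authors from brains of 3 WT and 3 KO mice by centrifugation in dextran and with a strainer, and RNA libraries were prepared with a directional kit and sequenced as paired ends. The authors trimmed the reads and mapped them with TopHat, and deposited FPKM values per gene symbol. The submitters' processing notes name mm10. The tool that computed FPKM and any normalization between libraries are not given in the sources used here.

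For genes averaging 1 FPKM or more, log2(FPKM + 1) was fitted by limma 3.58.1 (R 4.3.3), the prior variance following the mean, and Benjamini-Hochberg adjustment covered all genes fitted. The authors' DESeq2 test needs read counts and was not used. An exact two-sided permutation test was run for single genes. Confidence intervals are those of limma. The fit was tested on simulated data. Depth was estimated from the spacing of the smallest FPKM values and transcript lengths, and counting errors cover counting only. Coordinates, exons and GC content came from GENCODE M21 (GRCm38), with a GC value for 96.3% of the genes tested, and promoter windows from RefSeq.

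The members, the pathway lists and the marker lists were chosen with earlier results of these data known. Named were all members, the targeted gene, list genes with a limma p under 0.05, otherwise the 2 genes of a list with the largest mean and the 2 with the largest absolute log2 fold change, marker genes, and the 2 genes with the profile nearest to each member. The alternatives were other filters, pseudocounts and scalings, no trended variance, corrections for GC content and length, a replicate block, and leaving out each library. Scaling by endothelial markers and leaving out both KO libraries whose choroid plexus sum was over 2 times that of any WT library were added after the data were seen.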

Additional observations from a re-analysis of the deposited data

How the results depend on the processing

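The number of members with a limma p under 0.05 was 2 with all libraries, and 1 after correction for GC content, 1 with the replicate block and that correction, 1 after scaling by endothelial markers, and 1 to 3 with 1 library left out. It was 3 after quantile normalization and without both KO 1 and KO 3. The number of members whose groups did not overlap went from 4 to 2 after scaling by endothelial markers. Over all genes, 0 passed after adjustment and 838 had a p under 0.05 before it. Without a filter on low values 1 gene passed, with 1 library left out 0 to 4 passed and 450 to 1871 had a p under 0.05, and without both KO 1 and KO 3, which leaves 1 KO mouse, 7 passed and 1825 had a p under 0.05. Of the genes with a p under 0.05, 47.1% were higher in KO mice, but 93.6% after scaling by endothelial markers and 60.5% with the block and the GC correction.

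The median log2 fold change of the pathway lists, −0.09, was −0.02 after correction for GC content and −0.02 with the block as well, 0.14 after scaling by endothelial markers, −0.10 to −0.01 with 1 library left out, and −0.19 without KO 1 and KO 3. The sign turned for 5 members, each with a limma p over 0.05 in every setting. *Nos3* was 0.01 after correction for GC content, 0.01 with the block as well and 0.09 after endothelial scaling, and −0.39 to 0.02 with 1 library left out. *Nos2* was 0.01 after endothelial scaling and −0.30 to 0.02 with 1 library left out. *Edn1* was −0.18 to 0.45 with 1 library left out and −0.46 without KO 1 and KO 3. *Edn3* was 0.14 after endothelial scaling and −0.34 to 0.14 with 1 library left out. *Ednra* was −0.02 after correction for GC content and −0.02 with the block as well, −0.09 to 0.10 with 1 library left out and −0.09 without KO 1 and KO 3. *Ednrb* passed p = 0.05 after quantile normalization (limma p = 0.0491), after endothelial scaling (0.0190) and without KO 2 (0.0287), and *Ece1* without KO 1 and KO 3 (0.0252), none of them from an exact test. The cause was not tested for any of these.

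Same-numbered mice showed no strong common deviation, with correlations of 0.037, 0.027 and 0.002 over genes. With 3 mice a group, such values cannot decide whether mice were handled in pairs. These are the numbers of the sample titles. The file headers number the mice differently, and no block by those numbers was fitted. With the replicate block, 871 genes had a p under 0.05, 2 members were called and the block changed no other call among the members. The smallest adjusted limma p over all genes was 0.0507 with the block and 0.841 without it. *Nos2* rests on few fragments, and 3 mice a group cannot give an exact p under 0.1.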

Other observations

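The genes whose profiles over the 6 libraries were most like each member are given with the root mean square difference of centred log2(FPKM + 1). This is a description, since all genes of a library share its depth and preparation. For *Klf2* these were *Flnc* (0.074), with 8.77 to 12.2 FPKM in WT mice and 5.84 to 6.76 FPKM in KO mice, and *Trp53i11* (0.075), with 148 to 219 FPKM in WT mice and 114 to 121 FPKM in KO mice. For *Klf4* they were the endocytic receptor gene *Lrp1* (0.046), with 78.9 to 91.4 FPKM in WT mice and 50.3 to 68.9 FPKM in KO mice, and *Sec24d* (0.070). For *Ece1* they were *Aif1l* (0.038) and the dynactin gene *Dctn1* (0.048), with 72.8 to 77.4 FPKM in WT mice and 51.2 to 65.5 FPKM in KO mice. For *Ednrb* they were the copper transporter gene *Atp7a* (0.063), at 17.4 FPKM in KO 3 and 8.57 to 10.6 FPKM in the other 5 mice, and *Sema3f* (0.077).

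For the members whose groups overlapped, the nearest genes were *Serpinb9* (0.056) and *Nmd3* (0.057) for *Nos3*, *Glt28d2* (0.030) and *Itprip* (0.041) for *Nos1*, and *Nicn1* (0.060) and *Lrfn3* (0.062) for *Nos2*. For the ligands they were *Rmdn2* (0.060) and *Eva1b* (0.079) for *Edn1*, and *Dhrs7* (0.065) and *Akr1b10* (0.081) for *Edn3*. For *Ednra* they were *Alkbh6* (0.041) and *Dact1* (0.041).

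The third endothelin gene, *Edn2*, was listed at 0 in 5 libraries and at 0.602 FPKM in KO 3. *Sele*, a leukocyte adhesion gene of inflamed endothelium, was listed at 0 in each of the 6 libraries. *Slc7a1*, which carries the NOS substrate arginine into cells, had 34.6 to 48.9 FPKM in WT mice and 25.5 to 34.1 FPKM in KO mice, and *Prkca*, a kinase downstream of endothelin receptors, had 5.92 to 7.35 FPKM and 4.68 to 5.89 FPKM. Neither overlapped between the groups, and all 4 genes were named after their values were seen.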
